A study of Mus musculus with 9 samples.

Results

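Stellate cell and myofibroblast markers of the liver were followed through regeneration as the 10 genes *Des*, *Lrat*, *Rgs5*, *Reln*, *Pdgfra*, *Pdgfrb*, *Acta2*, *Tagln*, *Dcn* and *Lum*, chosen by gene name from the 43346 genes of the deposited count table. All 10 were present, all passed the expression filter, and each had between 60 and 8140 raw counts in every library. Whole liver of 12-week-old male C57/BL6 mice was sequenced in 9 libraries, 3 per group. The baseline group (0 h) was the tissue removed from vehicle-treated mice at surgery, which comprised the left lateral lobe and both median lobes. The other groups were the lobes left in place, collected 40 h after 70% partial hepatectomy from mice given saline vehicle or from mice given the SHP2 inhibitor NSC-87877 (NSC). Each i.p. injection held 7.5 mg/kg of NSC and was given 2 times daily, from 12 h before surgery according to the sample records and from 1 day before according to the methods. Time and lobe therefore cannot be told apart in either comparison with baseline, both comparisons share the same 3 baseline libraries, and resected tissue of NSC-treated mice was not analysed here. No label ties a baseline specimen to a remnant of the same mouse.

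Hepatic stellate cells lie between hepatocytes and the sinusoidal endothelium, and in the resting state they store vitamin A in lipid droplets. After injury they can turn into myofibroblasts, which multiply in response to platelet-derived growth factor (PDGF), become contractile and lay down extracellular matrix. The genes were read in 4 groups by role. *Lrat* (lecithin retinol acyltransferase, which esterifies vitamin A for storage), *Reln* (the secreted glycoprotein reelin), *Des* (the intermediate filament desmin) and *Rgs5* (a regulator of G protein signaling typical of pericytes) were read here as markers of resting stellate cells and pericytes. Whether *Des* and *Rgs5* are confined to the resting state was not tested. *Pdgfra* and *Pdgfrb* encode the 2 PDGF receptors, *Acta2* and *Tagln* encode the smooth muscle proteins alpha actin and transgelin, and *Dcn* and *Lum* encode the collagen-binding proteoglycans decorin and lumican. In whole tissue, fewer cells of a type and less RNA per cell cannot be told apart.

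The promoters of *Acta2*, which had the largest mean rise of the 10 genes after vehicle hepatectomy, and of *Lrat*, which had no significant change, are shown because they are the activated and the resting marker compared below. Both are the 250 bases before the RefSeq start on GRCm38.p6, on the minus strand, at chr19:34255374-34255623 for *Acta2* and chr3:82903975-82904224 for *Lrat*, with capitals marking matches to the CArG box, the 10-base element bound by serum response factor, searched as CC, then 6 bases that are A or T, then GG, with at most 1 mismatch. The pattern reads alike on both strands.
Acta2: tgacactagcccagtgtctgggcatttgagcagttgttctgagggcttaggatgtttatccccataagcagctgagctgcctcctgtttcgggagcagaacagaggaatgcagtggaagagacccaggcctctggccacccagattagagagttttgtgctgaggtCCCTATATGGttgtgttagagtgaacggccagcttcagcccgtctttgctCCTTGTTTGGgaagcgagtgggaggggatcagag
Lrat: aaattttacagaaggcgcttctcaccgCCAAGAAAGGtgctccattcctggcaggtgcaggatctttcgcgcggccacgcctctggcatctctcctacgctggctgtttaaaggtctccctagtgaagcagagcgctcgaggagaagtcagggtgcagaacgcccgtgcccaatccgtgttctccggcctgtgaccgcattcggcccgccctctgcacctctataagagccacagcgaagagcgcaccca
*Acta2* held 2 matches, at -84 to -75 and at -34 to -25 from the start, and *Lrat* held 1, at -223 to -214, each with 1 mismatch. The other 4 of the 6 members found in the promoter table, *Des*, *Rgs5*, *Reln* and *Pdgfra*, held none in this window. Of all 32851 mouse promoter windows of this length, 18.6% held at least 1 match and 2.96% at least 2, and the matches are a description of the letters only.

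At baseline the markers spanned a wide range of levels. *Dcn* was far above the rest at 59.6 ± 8.36 CPM per kb of gene length (SD, n = 3), where CPM is the count scaled to library size after TMM normalization. *Rgs5*, *Tagln* and *Lrat* followed at 5.10 ± 0.762, 4.55 ± 1.12 and 3.65 ± 0.988 CPM per kb (SD, n = 3 each), with overlapping ranges, then *Lum*, *Reln* and *Pdgfrb* at 2.36, 1.99 and 1.5 CPM per kb. *Acta2*, *Des* and *Pdgfra* were lowest at 1.18, 0.936 and 0.792 CPM per kb. The ranges of neighbors in this order overlapped except below *Dcn*, *Reln* and *Pdgfrb*. At 40 h *Dcn* remained highest in both groups and *Des* was last in both. By group mean *Acta2* moved from rank 8 at baseline to rank 5 at 40 h in both groups, with 6.08 ± 1.98 CPM per kb after vehicle and 4.02 ± 4.12 CPM per kb after NSC (SD, n = 3 each). The mean after NSC leaned on NSC replicate 1, at 8.75 CPM per kb, against 1.30 and 2.00 CPM per kb in NSC replicates 2 and 3.

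**Figure D1:**
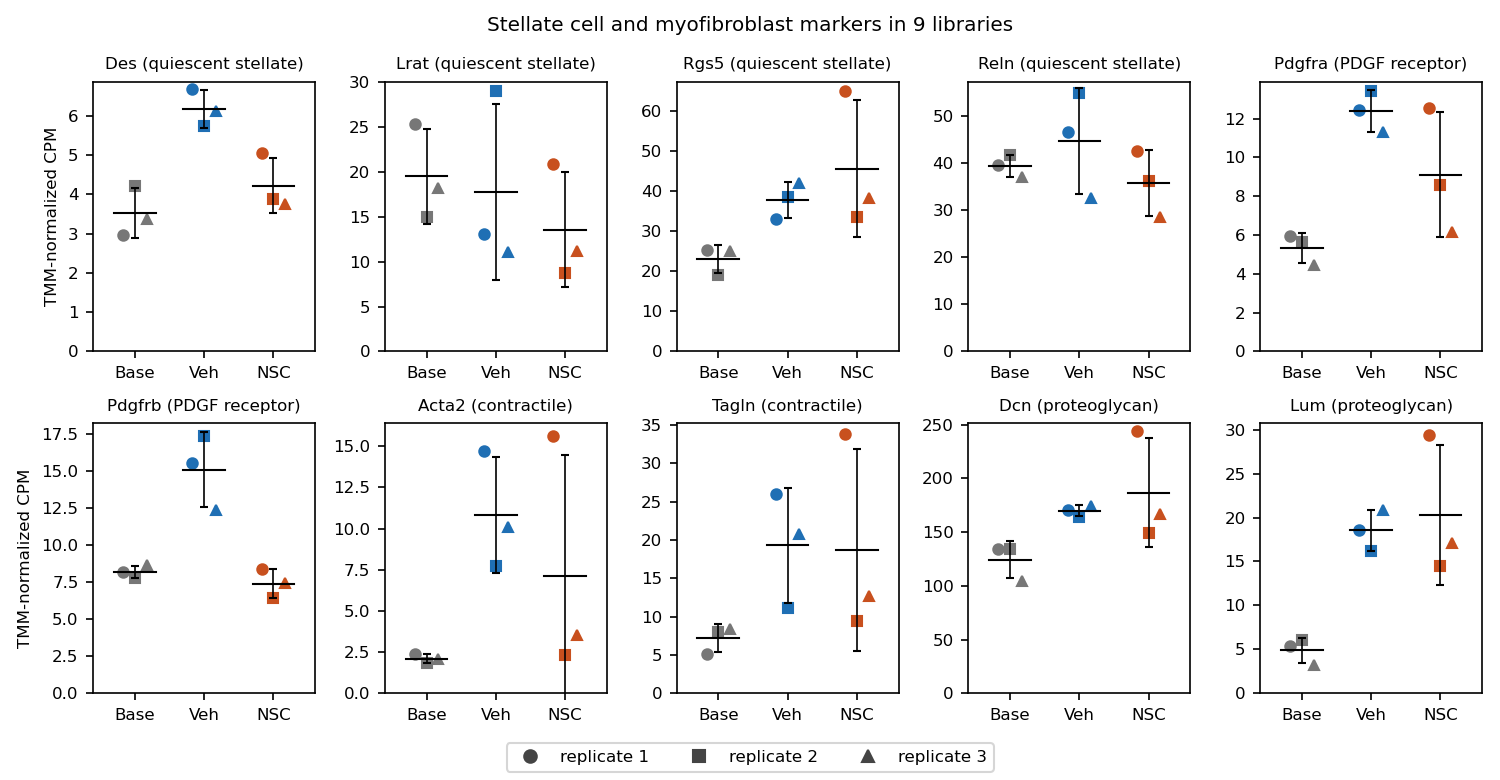
TMM-normalized CPM (vertical axes, linear from 0) of the 10 markers in the baseline (Base), vehicle 40 h (Veh) and NSC 40 h (NSC) libraries, with 1 point per library, the symbol giving the replicate, a line at the mean and bars of 1 SD (n = 3; the lower bar of *Acta2* after NSC is cut at 0). *Lum* and *Pdgfra* lie above baseline in all 6 libraries taken at 40 h, *Pdgfrb* is high in the 3 vehicle libraries only, and NSC replicate 1 is the highest of its group in every panel.

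The first comparison asked which markers change as the liver regenerates under vehicle. In vehicle-treated mice 6 of the 10 markers rose by 40 h and none fell (adjusted p under 0.05 over 15024 genes, edgeR quasi-likelihood test), while 12.7% of all tested genes rose and 11.0% fell. The 6 were *Lum*, *Acta2*, *Pdgfra*, *Pdgfrb*, *Des* and *Rgs5*. The median log2 fold change of the 10 was 0.85, against 0.01 over all tested genes, and 8 of the 10 had every vehicle library above every baseline library, which held for 24.2% of all genes. *Lum* and *Acta2* also exceeded an absolute log2 fold change of 1.5, as 7.22% of genes did in either direction.

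Among the proteoglycan genes, *Lum* (ENSMUSG00000036446, chromosome 10, 97565501 to 97572703) stood at 5.40, 6.04 and 3.27 CPM in the baseline libraries, at 18.6, 16.2 and 20.8 CPM in the vehicle libraries and at 29.4, 14.5 and 17.1 CPM in the NSC libraries. All 6 libraries at 40 h lay above all baseline libraries, and the 2 treatments overlapped. Its log2 fold change was 1.92 after vehicle (SE 0.29, adjusted p = 0.00107) and 2.05 after NSC (SE 0.29, adjusted p = 0.000504, edgeR), and it passed in all 17 settings tried for both. *Dcn* (ENSMUSG00000019929, chromosome 10, 97479500 to 97518162), the nearby gene, was measured at 134, 135 and 104 CPM at baseline, 171, 164 and 175 CPM after vehicle and 244, 149 and 167 CPM after NSC. Here too the 40 h libraries did not overlap baseline, with smaller steps: 0.45 after vehicle (SE 0.19, adjusted p = 0.108) and 0.59 after NSC (SE 0.19, adjusted p = 0.0331), both log2 fold changes from edgeR. The second value was 0.35 without NSC replicate 1, with an adjusted p of 0.115, and its call was also lost without baseline replicate 1 or 3 and with only the 2 groups compared.

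The ratio of the proteoglycan transcripts within a library does not depend on how libraries are scaled. Per kb, *Dcn* exceeded *Lum* by 24.8, 22.2 and 31.8 times at baseline, by 9.15, 10.1 and 8.35 times after vehicle and by 8.27, 10.3 and 9.74 times after NSC. Both 40 h groups lay wholly below baseline and within the same narrow range, although NSC replicate 1 had by far the most of both transcripts. Over the 9 libraries the pair had the highest correlation of all 45 member pairs (r = 0.93, and 0.97 for deviations from the group means, as a description).

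**Figure D2:**
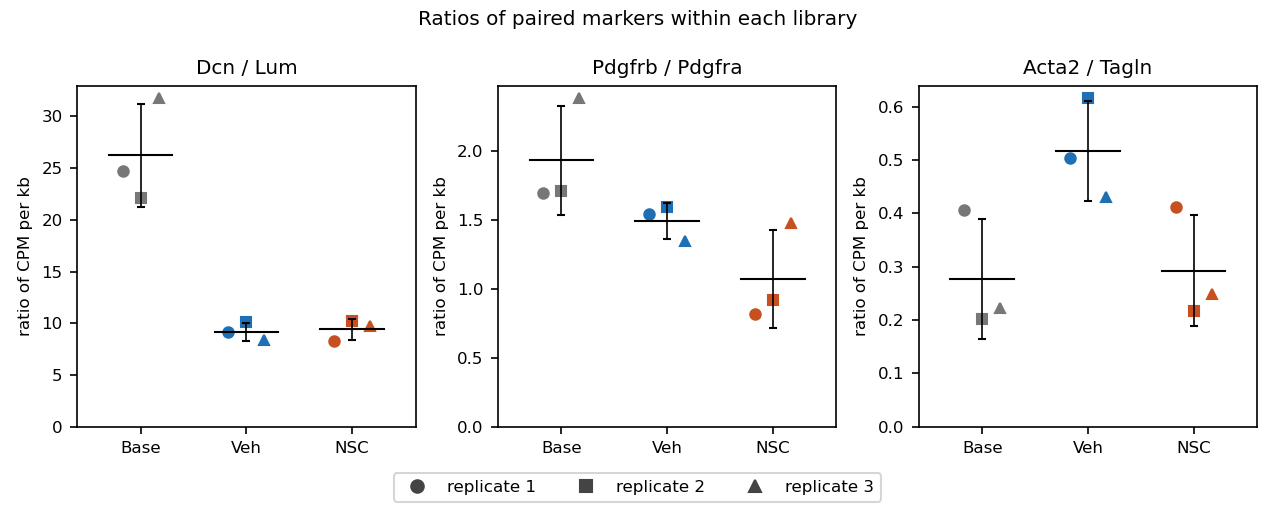
Ratios of paired marker transcripts within each library (CPM per kb over CPM per kb, linear axes from 0), with 1 point per library, a line at the mean and bars of 1 SD (n = 3). The *Dcn* to *Lum* ratio lies between 22.2 and 31.8 at baseline and between 8.27 and 10.3 in the 6 libraries at 40 h, the *Pdgfrb* to *Pdgfra* ratio is lowest in NSC replicates 1 and 2, and the *Acta2* to *Tagln* ratio is highest in the vehicle libraries.

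Of the contractile markers, *Acta2* passed the test after vehicle and *Tagln* in neither comparison, and both spread most among the NSC libraries, with SDs of 103% and 70.6% of the mean. *Acta2* (ENSMUSG00000035783, chromosome 19, 34241090 to 34255336) was at 2.37, 1.83 and 2.11 CPM at baseline and at 14.7, 7.75 and 10.1 CPM after vehicle, where all 3 libraries were above baseline, and its log2 fold change was 2.36 (SE 0.68, adjusted p = 0.0377, edgeR). This call passed in 9 of the 17 settings and was lost without any single baseline or vehicle library (adjusted p up to 0.122), while the log2 fold change stayed between 2.08 and 2.56. After NSC it was at 15.6, 2.31 and 3.56 CPM. NSC replicate 1 thus lay just above the highest vehicle library, while NSC replicate 2 lay inside the baseline range and NSC replicate 3 between baseline and vehicle. The log2 fold change of 1.77 against baseline (SE 0.67, adjusted p = 0.0736, edgeR) became 0.48 without NSC replicate 1 and passed at 2.19 without NSC replicate 2 (adjusted p = 0.0188), with edgeR's exact test (0.0252), with DESeq2 (0.0423) and with the replicate number as a block (0.0422). *Tagln* (ENSMUSG00000032085, chromosome 9, 45929628 to 45936058) was at 5.18, 8.06 and 8.41 CPM at baseline, 26.0, 11.2 and 20.8 CPM after vehicle and 33.8, 9.47 and 12.8 CPM after NSC. Every 40 h library exceeded every baseline library, yet neither step passed the threshold, with log2 fold changes of 1.42 after vehicle (SE 0.51, adjusted p = 0.0804) and 1.37 after NSC (SE 0.51, adjusted p = 0.0705, edgeR). Both steps of *Tagln* passed with edgeR's exact test and with DESeq2 (adjusted p of 0.00621 to 0.0258), and the log2 fold change after NSC was 0.62 without NSC replicate 1.

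The paired contractile markers differed in their balance between the treatments. Per kb, the *Acta2* to *Tagln* ratio was 0.407, 0.202 and 0.224 at baseline, 0.503, 0.616 and 0.431 after vehicle and 0.411, 0.217 and 0.249 after NSC. The vehicle libraries lay above all 6 others, and the NSC range largely coincided with that of baseline. The nearest values of the vehicle and NSC groups were close, at 0.431 and 0.411, and no test was run on the ratio.

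Both PDGF receptors rose under vehicle. *Pdgfra* (ENSMUSG00000029231, chromosome 5, 75152291 to 75198204) was at 5.94, 5.62 and 4.45 CPM at baseline and 12.4, 13.4 and 11.3 CPM after vehicle, a log2 fold change of 1.22 (SE 0.24, adjusted p = 0.00417, edgeR). *Pdgfrb* (ENSMUSG00000024620, chromosome 18, 61045150 to 61085061) was at 8.18, 7.81 and 8.64 CPM at baseline and 15.6, 17.4 and 12.4 CPM after vehicle, a log2 fold change of 0.88 (SE 0.18, adjusted p = 0.00439, edgeR). In neither gene did the groups overlap, and both passed in all 17 settings. With all 9 libraries the PDGF ligands did not pass the test in either comparison with baseline. After vehicle *Pdgfa* and *Pdgfc* had log2 fold changes of 0.49 and 0.69, *Pdgfb* had -0.49 and *Pdgfd* had 0.03 (adjusted p of 0.244 to 0.977, edgeR), and after NSC *Pdgfa* came closest at 0.88 (SE 0.33, adjusted p = 0.0557). After NSC 1 ligand passed as higher when baseline replicate 1, baseline replicate 2 or NSC replicate 1 was left out. Without NSC replicate 1 *Pdgfa* was at 1.15 (adjusted p = 0.0083, edgeR).

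The genes read here as resting stellate markers split. *Des* (ENSMUSG00000026208, chromosome 1, 75360329 to 75368579) was at 2.97, 4.21 and 3.36 CPM at baseline and 6.68, 5.72 and 6.12 CPM after vehicle, without overlap, with a log2 fold change of 0.81 (SE 0.22, adjusted p = 0.0203, edgeR), a call lost without baseline replicate 1 or 3 or vehicle replicate 1. *Rgs5* (ENSMUSG00000026678, chromosome 1, 169655501 to 169695813) was at 25.3, 19.2 and 25.0 CPM at baseline, 33.2, 38.5 and 42.1 CPM after vehicle and 65.1, 33.5 and 38.3 CPM after NSC. It rose under both treatments, by log2 fold changes of 0.71 (SE 0.23, adjusted p = 0.0435) and 0.98 (SE 0.23, adjusted p = 0.0071, edgeR), and every 40 h library was above every baseline library. The vehicle call passed in 11 of the 17 settings, being lost without any single baseline or vehicle library (adjusted p up to 0.134), and the NSC call passed in all 17.

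The storage marker *Lrat* and *Reln* showed no significant change. *Lrat* (ENSMUSG00000028003, chromosome 3, 82892579 to 82903973) was at 25.4, 15.0 and 18.2 CPM at baseline, 13.1, 29.0 and 11.1 CPM after vehicle and 20.9, 8.76 and 11.1 CPM after NSC. In each 40 h group a single library, vehicle replicate 2 and NSC replicate 1, stood well above the others. The log2 fold changes were -0.14 after vehicle (95% interval -1.12 to 0.85) and -0.52 after NSC (-1.51 to 0.47), with adjusted p of 0.854 and 0.389 (edgeR), so changes of up to about 1 in either direction could not be told from none under vehicle, whose sign also turned when baseline replicate 1, vehicle replicate 1 or vehicle replicate 3 was left out. *Reln* (ENSMUSG00000042453, chromosome 5, 21884454 to 22344702) was at 39.6, 41.6 and 37.0 CPM at baseline, 46.6, 54.8 and 32.5 CPM after vehicle and 42.6, 36.1 and 28.6 CPM after NSC, and all groups overlapped. Its log2 fold changes were 0.18 after vehicle (95% interval -0.25 to 0.61, adjusted p = 0.544) and -0.14 after NSC (-0.57 to 0.29, adjusted p = 0.613, edgeR).

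Set against *Lrat* and *Reln* within a library, the contractile markers stood higher in every 40 h library than in any baseline library. The mean log2 CPM of *Acta2* and *Tagln* minus that of *Lrat* and *Reln* was -3.15, -2.68 and -2.60 at baseline, -0.34, -2.09 and -0.39 after vehicle and -0.38, -1.91 and -1.40 after NSC. No 40 h library overlapped baseline, and vehicle replicate 2 and NSC replicate 2 were the closest to it. Against all 4 resting markers, *Des* and *Rgs5* included, the difference was -2.23, -1.94 and -1.86 at baseline, 0.03, -1.38 and -0.27 after vehicle and -0.02, -1.59 and -1.11 after NSC, again without overlap with baseline but with a smaller gap. With *Lrat* and *Reln* alone the group means were -2.81 ± 0.30, -0.94 ± 1.00 and -1.23 ± 0.78 (SD, n = 3 each). Per kb, the *Acta2* to *Lrat* ratio was 0.281, 0.366 and 0.349 at baseline, 3.37, 0.802 and 2.72 after vehicle and 2.24, 0.792 and 0.959 after NSC. Vehicle replicate 2 had the most *Lrat* and *Reln* of all 9 libraries, and NSC replicate 2 had the least *Lrat*. The mean score after NSC was 0.29 below that after vehicle, less than either group's SD, and the sign of this difference turned when vehicle replicate 1 or NSC replicate 2 was left out.

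**Figure D3:**
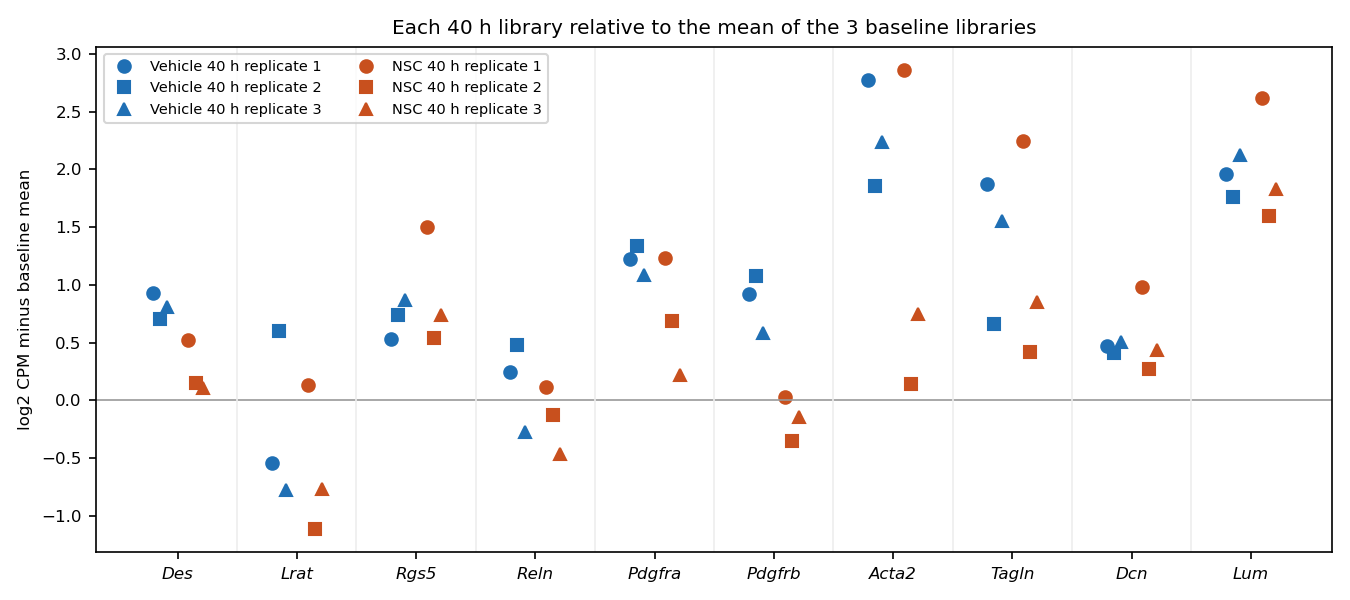
Log2 CPM of each marker in the 6 libraries at 40 h minus the mean of the 3 baseline libraries (vertical axis, 0 is baseline), with vehicle in blue, NSC in orange and the symbol giving the replicate. *Acta2*, *Tagln*, *Lum*, *Dcn*, *Pdgfra*, *Des* and *Rgs5* lie above 0 in every library, *Lrat* and *Reln* lie on both sides of 0, and *Pdgfrb* separates the treatments.

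The second comparison asked the same of NSC-treated mice. Against baseline 4 of the 10 markers rose and none fell, while 18.2% of all tested genes rose and 16.5% fell. The 4 were *Lum*, *Rgs5*, *Pdgfra* and *Dcn*, of which *Lum* alone also passed the fold threshold, as 8.13% of all genes did. The median of the 10 was 0.68, against 0.01 over all genes, and 5 of 10 were wholly above baseline, as were 23.9% of all genes. *Pdgfra* was at 12.6, 8.59 and 6.18 CPM after NSC, and the lowest of these was just above the highest baseline library, with a log2 fold change of 0.77 (SE 0.24, adjusted p = 0.0271, edgeR) that fell to 0.47 without NSC replicate 1 (adjusted p = 0.0998). Its call was also lost without baseline replicate 3 or NSC replicate 2 and with only the 2 groups compared. *Pdgfrb* was at 8.36, 6.42 and 7.43 CPM, which overlapped baseline, with a log2 fold change of -0.15 (95% interval -0.54 to 0.24, adjusted p = 0.547). *Des*, at 5.04, 3.87 and 3.76 CPM, overlapped baseline as well, with 0.27 (-0.22 to 0.75, adjusted p = 0.382, edgeR).

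**Figure D4:**
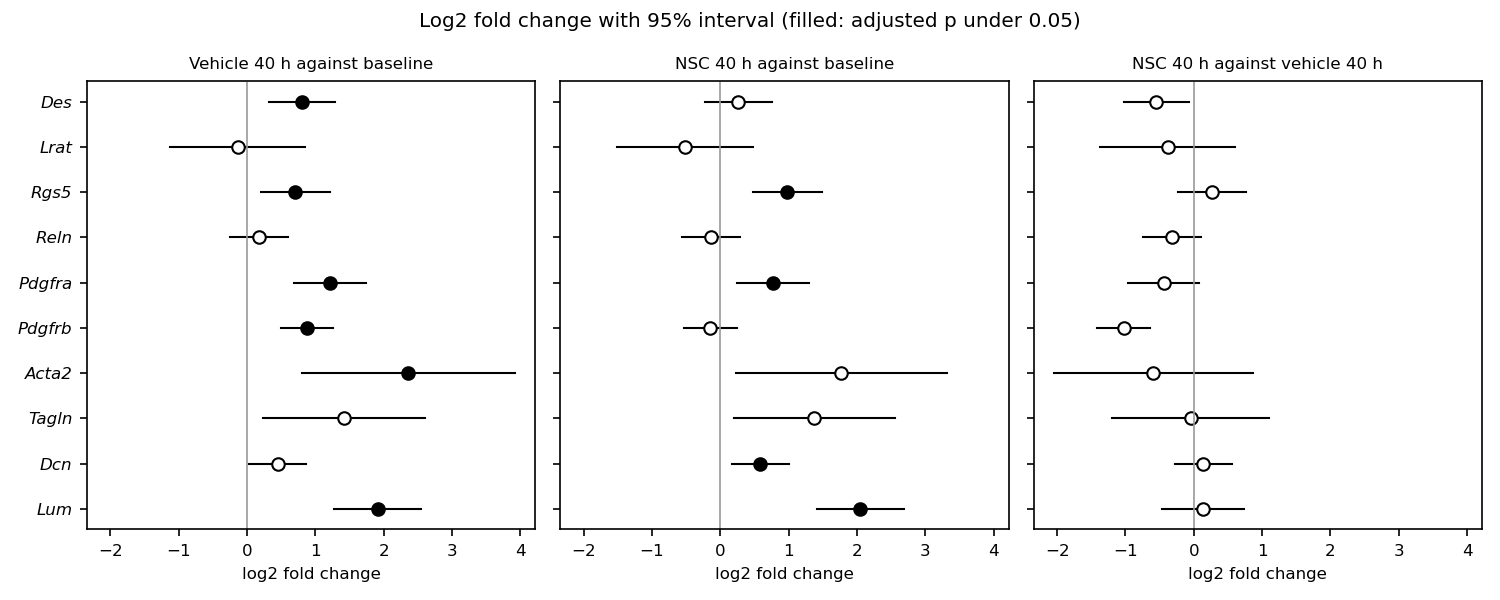
Log2 fold changes (horizontal axes) with 95% intervals from the edgeR fit for the 10 markers in the 3 comparisons, filled where the adjusted p is under 0.05. There are 6 filled points for vehicle against baseline, 4 for NSC against baseline and none for NSC against vehicle, where the interval of *Pdgfrb* runs from -1.42 to -0.64.

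The third comparison set NSC directly against vehicle at 40 h. No marker passed, with 0 of 10 at an adjusted p under 0.05 in the quasi-likelihood test, where 0.0399% of all genes passed (6 genes, all lower). At an unadjusted p under 0.05 there were 2 of 10, *Pdgfrb* and *Des*, both lower, against 10.2% of all genes that were lower at that threshold. The direction was lower for 7 of the 10, and the median log2 fold change was -0.35 against 0.02 over all genes. *Pdgfrb* differed most. All NSC libraries lay below all vehicle libraries, as in 12.2% of genes, and the log2 fold change was -1.03 (SE 0.18, 95% interval -1.42 to -0.64, unadjusted p = 8.6e-05, adjusted p = 0.0847 in edgeR's quasi-likelihood fit), which ranked 13 of 15024 genes by p. Over the 17 settings its log2 fold change stayed between -1.15 and -0.89, and its adjusted p ran from 0.000207 to 0.284 and passed in 5, with edgeR's exact test at 0.00146 and DESeq2 at 0.000207. These 2 tests called 397 and 733 genes in all. *Des* was also lower in every NSC than in every vehicle library, by a log2 fold change of -0.55 (95% interval -1.03 to -0.07, adjusted p = 0.208, edgeR), and it passed in none of the settings.

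For the other 8 markers the groups overlapped and every interval of the difference included 0. The intervals were narrowest for *Dcn* (log2 fold change 0.14, 95% interval -0.28 to 0.55), *Reln* (-0.32, -0.75 to 0.11) and *Rgs5* (0.27, -0.23 to 0.77). They were wide for *Acta2* (-0.59, -2.04 to 0.86), *Tagln* (-0.05, -1.19 to 1.10) and *Lrat* (-0.38, -1.38 to 0.61). *Lum* (0.13, -0.47 to 0.74) and *Pdgfra* (-0.44, -0.96 to 0.08) lay between. For the balance of the receptors, per kb *Pdgfrb* exceeded *Pdgfra* by 1.69, 1.71 and 2.39 times at baseline and 1.54, 1.59 and 1.35 times after vehicle, while after NSC the ratio was 0.819, 0.919 and 1.48. NSC replicate 3 lay within the vehicle range, so the vehicle and NSC groups overlapped, and no test was run on this ratio.

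A single library weighed on the comparison of treatments. NSC replicate 1 was the highest of its group for all 10 markers, by 1.21 times the mean of the other NSC libraries for *Pdgfrb* and up to 5.31 times for *Acta2*. Without it *Acta2* and *Pdgfrb* were both lower after NSC than after vehicle, with log2 fold changes of -1.89 (adjusted p = 0.00402) and -1.13 (adjusted p = 0.00579, edgeR), while 994 genes, 6.46% of those tested, were then called. *Rgs5*, *Dcn* and *Lum* turned from higher to lower without it, at -0.080, -0.11 and -0.24, and did not pass. The library was not marked out by the labels, and its summed level of macrophage genes, 402 CPM over 9 genes, and of endothelial genes, 325 CPM over 10 genes, was also the highest of all libraries. Their part in the marker levels was not tested.

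Related genes from lists of the same roles showed which functions moved alongside the markers. Of 17 matrix genes of activated stellate cells, 13 rose after vehicle and none fell, where 12.7% of all genes rose. Large steps were seen in *Timp1*, an inhibitor of matrix metalloproteinases, *Lox*, which crosslinks collagen, and *Col1a1*, the main fibrillar collagen chain, with log2 fold changes of 5.63, 4.38 and 3.59 (adjusted p of 0.0048, 0.00355 and 0.011, edgeR). After NSC 7 of 17 rose and none fell, where 18.2% of all genes rose, with *Timp1* at 5.23, *Lox* at 3.42, *Col3a1* at 1.45 and *Spp1*, the secreted phosphoprotein osteopontin, at 1.35. The first 3 were highest in NSC replicate 1. In NSC replicates 1, 2 and 3 *Timp1* was at 11.5, 1.76 and 1.33 CPM, *Lox* at 3.63, 0.815 and 0.352 CPM and *Col3a1* at 100.3, 32.3 and 36.5 CPM. Without NSC replicate 1 the log2 fold changes against baseline were 3.58, 1.97 and 0.74, and 6 of 17 rose and 1 fell. In that setting 33.7% of all genes were called in either direction. In the direct comparison 0 of 17 passed, 14 were lower after NSC and 10 were lower at an unadjusted p under 0.05, where 10.2% of all genes were, with a median log2 fold change of -0.96. Without NSC replicate 1, 12 of the 17 passed, all lower after NSC, among 6.46% of all genes called. Without vehicle replicate 3 there were 2, among 0.718% of all genes called. *Timp1* is a gene of low level at baseline, where it averaged 0.126 CPM at baseline against 6.44 CPM after vehicle, so its fold is imprecise.

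Of 13 tested genes of smooth muscle contraction, 3 rose and 1 fell after vehicle, near the shares of all genes (12.7% and 11.0%), and the number that rose was 1 to 5 with single libraries left out, 1 without baseline replicate 2 or 3 or vehicle replicate 1 or 2. These were *Smtn* (smoothelin) at 1.34, *Tpm1* (tropomyosin) at 1.31 and *Flna* (the actin crosslinker filamin A) at 1.10, and *Mylk* (myosin light chain kinase) at -0.77. After NSC, where 18.2% of all genes rose and 16.5% fell, *Tpm1* rose by 1.15 and *Mylk* fell by 1.09, all as log2 fold changes past an adjusted p of 0.05 in edgeR. None of the 13 passed between the treatments, where 12 were lower after NSC, as were 7291 of all 15024 genes. Without vehicle replicate 3 or NSC replicate 1, 1 passed as lower, where 0.718% and 6.46% of all genes were called. Without NSC replicate 1 it was *Flna*, at -1.14 (adjusted p = 0.0078, edgeR). Of 7 other small leucine-rich proteoglycan genes only *Bgn* (biglycan) passed, with a log2 fold change of 0.63 after vehicle (adjusted p = 0.0455, edgeR). This count was near the share of all genes that rose after vehicle (12.7%). None passed after NSC, where 18.2% of all genes rose and 16.5% fell. The count after vehicle ranged from 0 to 2 with single libraries left out, 0 without baseline replicate 1 or 3, vehicle replicate 1 or 2 or NSC replicate 2 and 2 without NSC replicate 1.

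Of 24 other tested genes typical of stellate cells, 4 rose and 3 fell after vehicle, near the shares of all genes (12.7% and 11.0%), with *Hgf*, the hepatocyte growth factor, at 1.73, *Ecm1*, a secreted matrix protein, at -0.94 and *Angptl6* at -0.77. After NSC 2 rose and 4 fell, against 18.2% and 16.5% of all genes, with *Hgf* at 1.80, *Ecm1* at -1.55 and *Angptl6* at -1.01. Between the treatments none of the 24 passed, and without NSC replicate 1, 1 passed as lower, among 6.46% of all genes called. *Hgf* averaged 4.24 CPM at baseline, 14.1 CPM after vehicle and 14.7 CPM after NSC (means of 3).

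Markers of other cells that could share these genes were read as well. Of 12 tested portal fibroblast genes, which code for elastic fiber and adventitial proteins, 5 rose and 1 fell after vehicle. Among them were *Fbln2* at 2.32, *Pi16* at 2.30, *Cd34* at 1.58 and *Gas1* at -1.20 (edgeR), where 12.7% of all genes rose and 11.0% fell. After NSC 1 rose and 1 fell, *Pi16* at 2.29 and *Gas1* at -1.20 (edgeR), not above the shares of all genes (18.2% and 16.5%). The summed level of the portal fibroblast genes was 21.5 to 23.4 CPM at baseline, 28.9 to 35.7 CPM after vehicle and 30.4, 14.7 and 18.4 CPM in NSC replicates 1, 2 and 3. In NSC replicates 2 and 3 this sum lay below every baseline library, and *Lum* and *Dcn* lay above every baseline library. Mesothelial genes, which mark the cells covering the liver surface, summed to 2.84 to 5.47 CPM over 7 genes at baseline, 29.2 to 34.1 CPM after vehicle and 29.4, 17.4 and 2.27 CPM in the NSC replicates. Of the 7 mesothelial genes, 5 rose after vehicle and 3 after NSC, against 12.7% and 18.2% of all genes. With single libraries left out these counts ran from 1 (without baseline replicate 1) to 7 (without NSC replicate 3) after vehicle and from 0 (without baseline replicate 1 or 2) to 7 (without NSC replicate 3) after NSC, and the portal fibroblast genes that rose after NSC were 1 to 4, the last without NSC replicate 3. After vehicle 15.2% of all genes were called without baseline replicate 1 and 25.3% without NSC replicate 3. After NSC the shares were 26.9% and 28.7% without baseline replicate 1 or 2 and 33.6% without NSC replicate 3. In NSC replicate 3 the mesothelial sum was below every baseline library and *Lum*, at 17.1 CPM, was above every baseline library. The part of these cells in the marker levels was not tested.

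**Figure D5:**
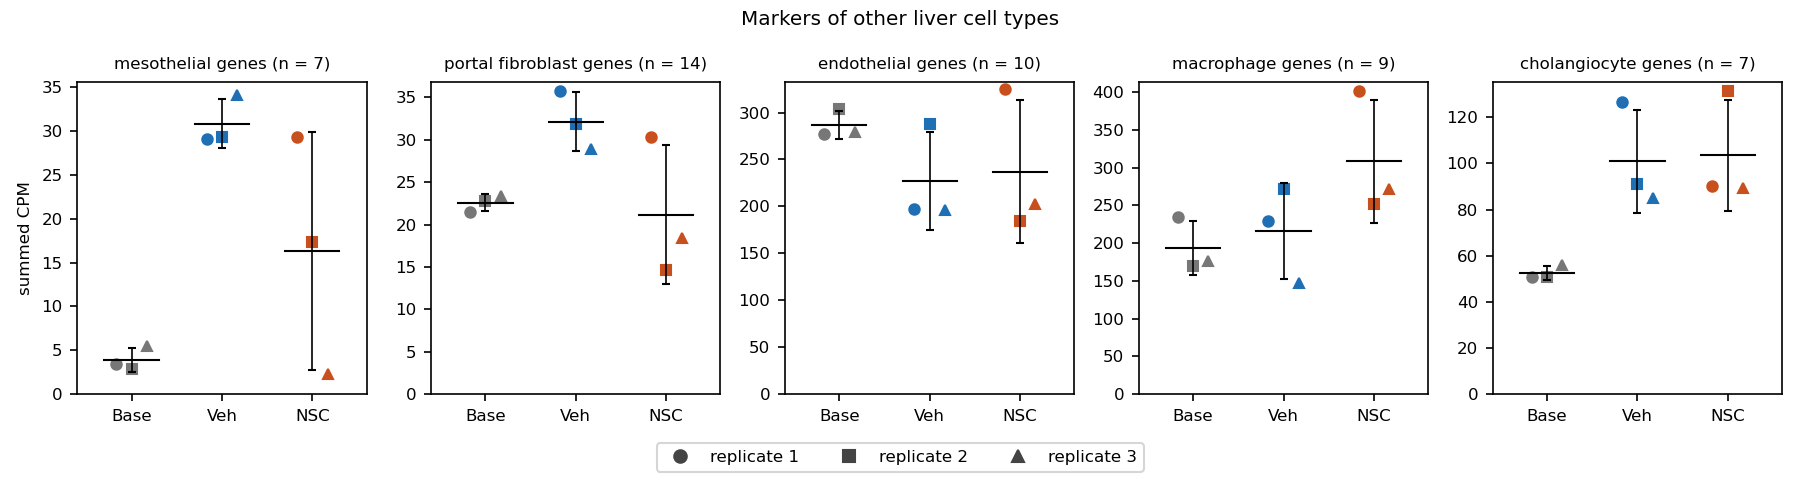
Summed CPM (linear axes from 0) of marker genes of 5 other cell types in the 9 libraries, with 1 point per library, a line at the mean and bars of 1 SD (n = 3). The mesothelial sum is at 2.84 to 5.47 CPM at baseline, 29.2 to 34.1 CPM after vehicle and spread from 2.27 to 29.4 CPM after NSC, while the macrophage and endothelial sums are highest in NSC replicate 1.

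The remaining lists place the markers within the tissue. The 10 hepatocyte genes took 96219 to 134673 CPM in every library, so hepatocyte transcripts were abundant in all 9. Of these 10, 5 fell after vehicle and 6 after NSC, against 11.0% and 16.5% of all genes. Cholangiocyte genes summed to 50.6 to 55.9 CPM over 7 genes at baseline, 85.1 to 127 CPM after vehicle and 89.2 to 131 CPM after NSC. In the 2 comparisons with baseline 4 and 3 of the 6 tested cholangiocyte genes were higher, against 12.7% and 18.2% of all genes. Endothelial genes summed to 277 to 304 CPM at baseline, 196 to 288 CPM after vehicle and 184 to 325 CPM after NSC. Macrophage genes summed to 170 to 234 CPM at baseline, 147 to 272 CPM after vehicle and 252 to 402 CPM after NSC, where every library was above every baseline library. In each comparison with baseline 1 of 10 endothelial genes fell, near or below the shares of all genes (11.0% after vehicle and 16.5% after NSC). Of 9 macrophage genes 2 rose after vehicle and 4 after NSC, against 12.7% and 18.2% of all genes.

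Across the 9 libraries the markers tended to vary together. The 45 pairs had Pearson correlations of log2 CPM from -0.25 (*Lrat* with *Lum*) to 0.93 (*Dcn* with *Lum*) with a median of 0.65. After subtraction of the group means 44 of the 45 were positive, with a median of 0.54. NSC replicate 1 was the highest of its group for all 10 markers. Correlations without it, or among pairs of other genes, were not computed, so the values are not shown to be particular to the markers. Among 12587 other genes, the closest to *Acta2* were *BC030307*, *Sult1a1* and *Atp8b2* (r = 0.98, 0.97 and 0.97), and the closest to *Dcn* were *Jam2*, *Far1* and *Klhl23* (0.97, 0.97 and 0.96). Those closest to *Pdgfrb* were *Tm6sf2*, *Glmp* and *Rcn3* (0.98, 0.97 and 0.96), and those closest to *Lrat* were *Renbp*, *Igkc* and *Tmc8* (0.92, 0.91 and 0.90). The points share libraries and groups, and these values describe 9 libraries with no test.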

How the data were processed

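RNA-Seq counts from 9 mouse liver libraries were used. Per the study's methods and the processing notes, the authors ran MAP-RSeq, with STAR 2.6.1 as aligner and featureCounts (Subread 1.5.1) as counter, and the deposited counts are raw and not normalized. The deposited FPKM values were recomputed from these counts (largest relative difference 4.96e-10 with 1 base added to the listed length) and were not tested. The submitters' notes name the human build hg38, but the identifiers are mouse ones: 42462 of 43346 are in GENCODE M21 (GRCm38), 33460 with the same coordinates, and positions are printed as the table gives them. Promoter sequences are from RefSeq (GRCm38.p6). The strand setting used for counting is not given in the sources used here.

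The test was edgeR 4.0.16 in R 4.3.3 (TMM factors, filterByExpr, robust quasi-likelihood fit of all 9 libraries with the group as the only term), and p was adjusted by Benjamini-Hochberg over the 15024 genes tested. Other tools were limma 3.58.1, DESeq2 1.42.0, version 1.17.8 of the data.table package, Python 3.11.15, pandas 2.3.3 and matplotlib 3.10.9. Log2 CPM used a prior count of 2. On data simulated for NSC against vehicle, the test found 100 of 200 genes with a 2-fold change, with 8 false calls, and 191 of 200 with a 4-fold change, with 21, and it called 1 gene when none was changed. Depth was 31187349 to 33943842 counts per baseline library, 27956396 to 42887589 after vehicle and 23997363 to 30201051 after NSC. The chi-square per gene between replicates was 24.9 to 151, so none was counted as a duplicate, and an exact permutation test of 3 against 3 cannot give a p below 0.1. Replicates are biological according to the study, and p-values rest on 3 per group.

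The markers and lists were chosen with earlier results of these data known, and list genes were written from general knowledge. Named are all 10 markers, up to 4 genes per list and comparison with the largest change among those past an adjusted p of 0.05, all PDGF ligands, and for *Lrat*, *Pdgfrb*, *Acta2* and *Dcn* the 3 genes of highest correlation. Some genes that meet this rule are not reported here. Other cell types are given as sums and counts. *Ccn2* and *Adgre1* did not match the deposited table by name, and *Ccn2* was tested under its older symbol *Ctgf*.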

Additional observations from a re-analysis of the deposited data

How the results depend on the processing

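Each marker was recomputed under 17 settings, which gave 510 log2 fold changes. Of these, 451 kept their direction and their side of the threshold, 25 no longer passed, 20 newly passed and 14 changed sign. After vehicle, 6 markers were called. The count was 2 with the fold threshold, 3 at an adjusted p under 0.01, and from 3 (without baseline replicate 1, baseline replicate 3 or vehicle replicate 1) to 8 (without NSC replicate 1) when single libraries were left out. Without baseline replicate 1, baseline replicate 3 or vehicle replicate 1, 15.2%, 14.8% and 15.4% of all genes were called. The share was 29.5% without NSC replicate 1. After NSC, 4 were called, against 2 with only the 2 groups compared, 1 with the fold threshold, 2 at an adjusted p under 0.01, and 2 (without baseline replicate 3 or NSC replicate 1) to 5 without single libraries. Of all genes, 31.7% were called with only the 2 groups compared, 23.4% without baseline replicate 3 and 33.7% without NSC replicate 1. Between the treatments, 0 were called, but 1 (*Pdgfrb*) by edgeR's exact test, by DESeq2 and with all genes of at least 1 count, and 0 to 2 without single libraries (*Pdgfrb* without vehicle replicate 3, *Pdgfrb* and *Acta2* without NSC replicate 1). Of all genes, the exact test called 2.64%, DESeq2 5.84% and the fit of genes with at least 1 count 0.909%. The shares were 0.718% without vehicle replicate 3 and 6.46% without NSC replicate 1. The cause of these differences between settings was not tested.

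Signs changed for values near 0. After vehicle, *Lrat* ranged from -0.68 to 0.11 over the libraries left out, above 0 at 0.096, 0.049 and 0.11 without baseline replicate 1, vehicle replicate 1 and vehicle replicate 3. After NSC, *Reln* was at 0.0045 with library size only, which put the median of all genes at 0.15, and ranged from -0.28 to 0.000285 over the libraries left out, the latter without NSC replicate 3. Between the treatments, *Lrat* ranged from -0.84 to 0.17 (without vehicle replicate 2). *Tagln* was at 0.073 with library size only (median of all genes 0.14) and ranged from -0.80 to 0.27, above 0 without vehicle replicate 1 or 3 or NSC replicate 2 or 3. *Rgs5* ranged from -0.080 to 0.45, *Dcn* from -0.11 to 0.27 and *Lum* from -0.24 to 0.33, below 0 without NSC replicate 1.

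Same-numbered libraries did not deviate together (r of -0.05 to 0.13), so the numbers were not taken to pair samples. With a replicate block 6, 5 and 0 markers were called in the 3 comparisons, against 23.8%, 34.5% and 0.0732% of all genes. With 3 libraries per group, 2-fold changes were often missed on simulated data, so a marker that did not pass is not shown to be unchanged.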
